A study of Pinus pinaster with 4 samples.

Results

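The circadian clock orthologues LHY/CCA (sp_v3.0_unigene28840), PRR7 (sp_v3.0_unigene2301) and ELF3 (sp_v3.0_unigene6344) were followed in maritime pine (Pinus pinaster) needles. The names are those the study gives to the contigs. Taken by identifier, all 3 had a row among the 17571 genes of the expression table. LHY/CCA was 1.99-fold higher in the Leiria provenance than in the Tamrabta provenance, whereas PRR7 was 2.68-fold and ELF3 2.15-fold higher in Tamrabta, as ratios of the provenance means. For each gene both plants of one provenance lay above both plants of the other, a separation also seen, higher in Leiria, for 25.1% and, higher in Tamrabta, for 23.9% of all genes. None of the 3 passed the thresholds of limma, which 0.154% of all genes passed. PRR7 passed the same thresholds in the edgeR exact test (5.99% of all genes), and PRR7 and ELF3 did in DESeq2 (6.19% of all genes).

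Adult needles of 4 plants were sequenced, with 1 library for each plant. L6 and L7 came from Leiria, a coastal provenance from Portugal, and T3 and T6 came from Tamrabta, a provenance from the Atlas mountains in Morocco. All plants were cuttings that had been rooted and were 17 months old, grown in pots in the same greenhouse under the same fertilization and irrigation, and all their branches had been pruned beforehand. The provenances belong to a clonal collection, and the sources used here do not say whether plants of 1 provenance shared a clone. The needles were harvested at the same time of the same day. Each gene was therefore measured at 1 time of day, and whether it cycled over the day was not measured. A difference in level cannot be told apart from a difference in the phase of a daily cycle.

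In Arabidopsis, the clock is built from transcription factors that repress one another in turn over the day. LHY and CCA1 are Myb proteins whose transcripts peak around dawn and which repress genes of the evening. PRR7 belongs to the pseudo-response regulators, which accumulate during the day and repress LHY and CCA1. ELF3 is a part of the evening complex, which acts around dusk and at night and represses genes of the PRR family. The ratio of the morning gene to the other members changes over the day for this reason, and the same genes take part in the response of plants to day length. These roles are known from Arabidopsis and were not measured here, and the terms morning, daytime and evening gene below refer to them. In the part of the annotation used here, the LHY/CCA contig matched Arabidopsis AT1G01060 and carried a Myb domain, the ELF3 contig was described as an unassigned protein with no Arabidopsis match, and the PRR7 contig had no entry.

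Levels are counts per 1000000 (CPM), as the authors scaled them with the TMM factors of edgeR. Each library's values were whole multiples of the value of 1 count, and the recovered counts totalled 40019608 to 58835449 per library. A level of 0.0513 to 0.0825 CPM corresponded to 3 counts, the lowest level taken as detectable. Between 5.91% and 8.34% of the counts fell on the 10 most abundant genes. Counts were not divided by contig length, so the levels of the clock genes in CPM were compared between libraries and not with one another.

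The morning gene LHY/CCA was measured at 115 CPM in both Leiria plants, at 63.7 CPM in T3 and at 52.1 CPM in T6. Behind these levels were 4179 and 6739 counts in L6 and L7 and 3213 and 2342 counts in T3 and T6. The 95% counting intervals (exact Poisson) were 111 to 118 CPM in L6, 112 to 118 CPM in L7, 61.5 to 65.9 CPM in T3 and, for T6, 49.98 to 54.2 CPM. These intervals cover counting error only and not the variation between plants. The Leiria plants could not be told apart by their counts, and both lay above both Tamrabta plants. The means were 115 ± 0.231 CPM in Leiria and 57.9 ± 8.20 CPM in Tamrabta (SD, n = 2). The lowest Leiria level was 1.80-fold above the highest Tamrabta level, and over the pairs of a Leiria with a Tamrabta plant the fold ranged from 1.80 to 2.21. The Tamrabta plants differed from each other 1.22-fold.

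The level of the daytime gene PRR7 was 109 CPM (3954 counts) in L6 and 262 CPM (15352 counts) in L7, against 500.04 CPM (25238 counts) in T3 and 496 CPM (22305 counts) in T6. The Tamrabta plants were within 1.01-fold of each other, and both exceeded both Leiria plants. The Leiria plants differed 2.41-fold from each other, with 95% counting intervals of 105 to 112 CPM in L6 and 258 to 267 CPM in L7. The means were 186 ± 109 CPM in Leiria and 498 ± 2.94 CPM in Tamrabta (SD, n = 2). Nearly all of the spread of PRR7 within provenances was thus between L6 and L7. Among the 11218 genes with a mean of at least 5 CPM, 2.76% showed a gap at least as large between these plants. The fold between single Tamrabta and Leiria plants ranged from 1.89 to 4.60.

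The evening gene ELF3 had the lowest counts of the members, at 16.4 CPM (598 counts) in L6 and 20.7 CPM (1212 counts) in L7, against 41.9 CPM (2117 counts) in T3 and 37.9 CPM (1705 counts) in T6. Both Tamrabta plants were higher than both Leiria plants. The counting intervals of the provenances did not meet, since the upper bound in L7 was 21.9 CPM and the lower bound in T6 was 36.1 CPM (95%, exact Poisson). The means were 18.6 ± 3.03 CPM in Leiria and 39.9 ± 2.86 CPM in Tamrabta (SD, n = 2). The plants of a provenance differed 1.26-fold in Leiria and 1.11-fold in Tamrabta, and the fold between plants of the provenances ranged from 1.83 to 2.55.

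**Figure D1:**
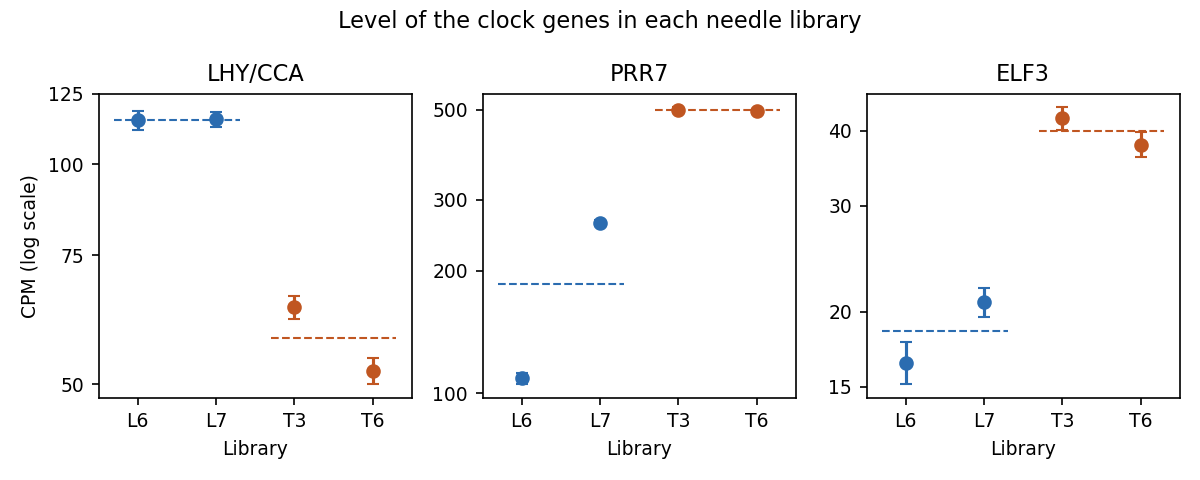
Level of LHY/CCA, PRR7 and ELF3 in CPM (log axis, a separate range for each gene) in the needle libraries L6 and L7 (Leiria, blue) and T3 and T6 (Tamrabta, orange), where points are single plants, bars are 95% counting intervals and dashed lines are provenance means. LHY/CCA was at 115 CPM in both Leiria plants and at 63.7 and 52.1 CPM in the Tamrabta plants, while PRR7 and ELF3 were lowest in L6, at 109 and 16.4 CPM.

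The logFC is the mean of log2(CPM + 0.5) in Leiria minus that in Tamrabta, tested with limma over all genes of the table. For LHY/CCA the logFC was 0.99 (standard error 0.17), with an adjusted p of 0.139 in limma. PRR7 had -1.56 (standard error 0.45, adjusted p = 0.262), and ELF3 had -1.09 (standard error 0.19, adjusted p = 0.141). A gene counted as called when its adjusted p was under 0.05 and its logFC beyond 1 in either direction. By this rule limma called 0 of the 3 members and 0.154% of all genes. The unadjusted p from limma was 0.0032 for LHY/CCA, 0.0228 for PRR7 and 0.00338 for ELF3, and 14.7% of all genes had one under 0.05. A p above the threshold does not show that the provenances had equal levels.

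Tests on the counts differed in their calls. The exact test of edgeR called PRR7 (logFC -1.42, adjusted p = 0.0115) and 5.99% of all genes. In the same test the adjusted p was 0.0423 for LHY/CCA, whose logFC of 0.991 was under the threshold of 1, and 0.0806 for ELF3. DESeq2 called PRR7 (logFC -1.44, adjusted p = 0.0326) and ELF3 (logFC -1.11, adjusted p = 0.000619), together with 6.19% of all genes, and gave LHY/CCA a logFC of 0.98 (adjusted p = 0.000531). The edgeR quasi-likelihood test called none of the members, with adjusted p from 0.163 to 0.307, and it called 0.0114% of all genes. The study singled out these genes from its arrays, which included the sequenced plants, and from these libraries, so the calls are not independent evidence.

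The separation of the provenances was common in the table. LHY/CCA was the 1 member whose values lay higher in Leiria without overlap, as they did for 25.1% of all genes. PRR7 and ELF3 lay higher in Tamrabta without overlap, as did 23.9% of all genes. The size of the differences was less common. Of the genes with a mean of at least 5 CPM, 9.44% had an absolute logFC at least as large as that of LHY/CCA, 8.26% as that of ELF3 and 4.62% as that of PRR7. The median logFC of all genes was 0.011, and 5% of all genes lay below -0.91 and 5% above 1.21. When each library was scaled to the same sum, the median of all genes moved to -0.127, and the logFC became 0.84 for LHY/CCA, -1.71 for PRR7 and -1.24 for ELF3. The direction of each member was the same under this scaling and under quantile normalization.

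The value of PRR7 moved most with the plants included, through the gap between L6 and L7. Without L6 the logFC of PRR7 was -0.92, and without L7 it was -2.19. With any 1 library left out, the logFC stayed between 0.85 and 1.14 for LHY/CCA and between -1.25 and -0.93 for ELF3.

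A ratio between genes within a library does not depend on how that library was scaled. The lengths of the contigs, which are not known here, cancel when the same ratio is compared between libraries, so only its change between libraries is interpretable. The ratio of LHY/CCA to PRR7 was 1.06 in L6 and 0.439 in L7, but 0.127 in T3 and 0.105 in T6. The 95% counting intervals were 1.01 to 1.104, 0.427 to 0.452, 0.123 to 0.132 and 0.101 to 0.11 (Clopper-Pearson). All plants were separated by their counts, and both Leiria plants had a higher ratio than both Tamrabta plants. That order follows from the levels, since LHY/CCA lay higher in Leiria and PRR7 higher in Tamrabta without overlap. The change of the ratio combines the differences of both genes and is no separate finding. On the log2 scale the means were -0.55 ± 0.90 in Leiria and -3.11 ± 0.20 in Tamrabta (SD, n = 2), a difference of 2.56 or 5.89-fold. Over the pairs of plants the log2 difference ranged from 1.79 to 3.33, and the Leiria plants differed 2.41-fold from each other.

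The ratio of LHY/CCA to ELF3 was 6.99 in L6 and 5.56 in L7, but 1.52 in T3 and 1.37 in T6, with 95% counting intervals of 6.41 to 7.63, 5.23 to 5.92, 1.44 to 1.60 and 1.29 to 1.46. Both Leiria plants were higher than both Tamrabta plants, which here too follows from the levels of LHY/CCA and ELF3. The log2 means were 2.64 ± 0.23 in Leiria and 0.53 ± 0.10 in Tamrabta (SD, n = 2), a difference of 2.11 or 4.32-fold, which ranged from 1.87 to 2.35 over the pairs of plants. This difference was larger than the gap between plants of a provenance, which was 1.26-fold in Leiria and 1.105-fold in Tamrabta. The exact permutation test over the 4 libraries gave a two-sided p of 0.33 for each of these ratios (adjusted p = 0.5 over the 3 ratios computed), the smallest that 2 plants against 2 can give.

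The ratio of PRR7 to ELF3 did not separate the provenances. It was 6.61 in L6 but 12.7 in L7, close to 11.9 in T3 and 13.1 in T6, with 95% counting intervals of 6.07 to 7.22, 11.9 to 13.4, 11.4 to 12.5 and 12.5 to 13.8. L6 was low, and L7 lay between T3 and T6. The log2 difference between the provenance means was -0.45, with -0.98 to 0.09 over the pairs of plants (exact permutation test, two-sided p = 0.667, adjusted p = 0.667). Without L6 it was 0.02.

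**Figure D2:**
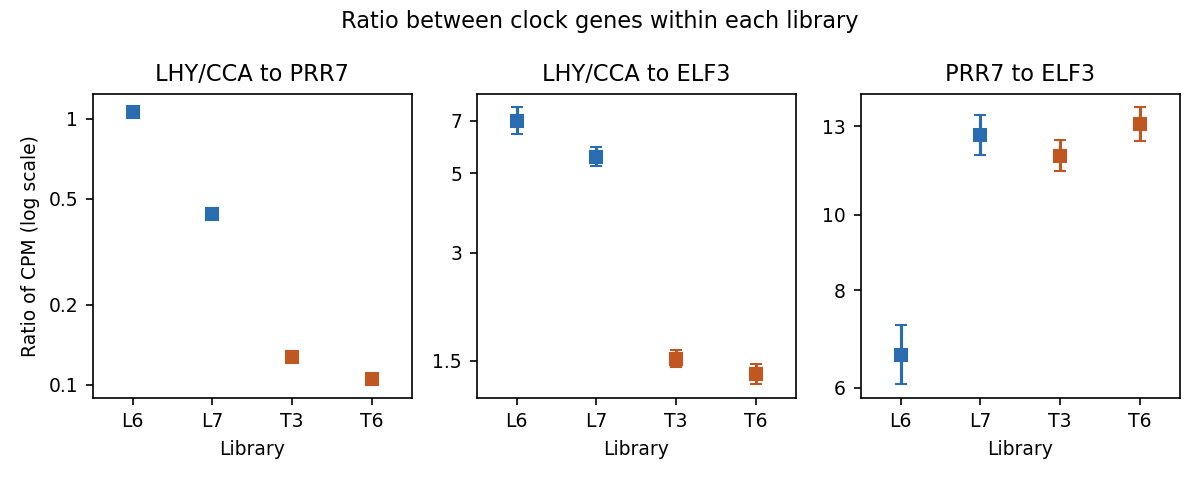
Ratio of CPM between the clock genes within each needle library (log axis, a separate range for each ratio), for Leiria (L6 and L7, blue) and Tamrabta (T3 and T6, orange), with 95% counting intervals as bars (shorter than the symbol in the first panel). LHY/CCA to ELF3 was 6.99 and 5.56 in the Leiria plants and 1.52 and 1.37 in the Tamrabta plants, whereas PRR7 to ELF3 was low in L6 alone, at 6.61.

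To set these ratios beside those of other genes, the log2 ratio of every other gene to LHY/CCA was compared between the provenances with limma (17570 genes). The ratio of PRR7 to LHY/CCA changed by -2.55 from Tamrabta to Leiria (standard error 0.45, adjusted p = 0.0219 from limma), and that of ELF3 by -2.08 (standard error 0.22, adjusted p = 0.0219). Both were called, but so were 43.6% of all genes, because the difference of LHY/CCA itself enters every ratio and the median change over all genes was -0.98. A call of a ratio was therefore no result about the pair of genes. By size, 1.90% of all genes had a change of the ratio as low as that of PRR7 and 3.78% as low as that of ELF3. The same logFC of LHY/CCA is subtracted from every gene, so these shares rank the logFC of PRR7 and ELF3 alone. Without L6 the change was -1.92 for each of the genes (adjusted p = 0.138 from limma), and without L7 it was -3.18 for PRR7 and -2.24 for ELF3 (adjusted p = 0.130 from limma). These fits called 0 and 2 of all genes, respectively.

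**Figure D3:**
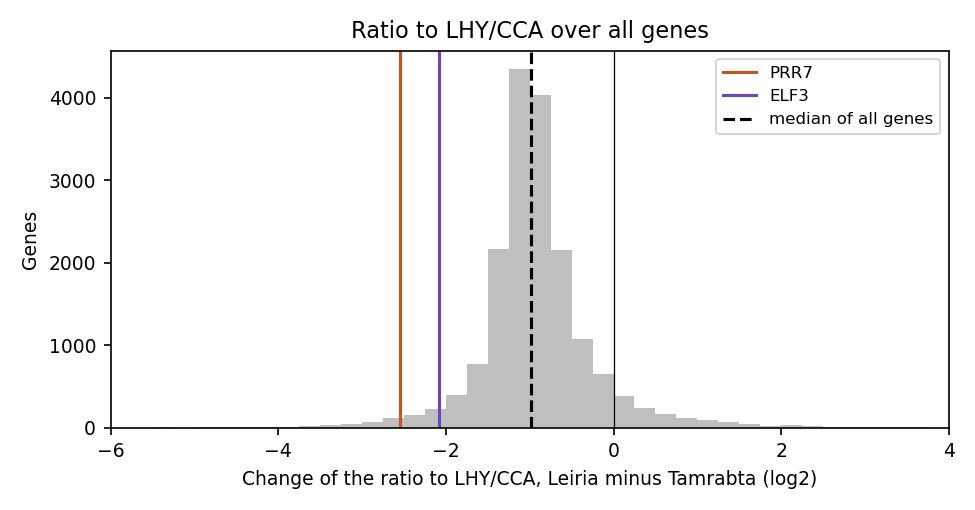
Histogram of the change in the log2 ratio to LHY/CCA between the provenances (Leiria minus Tamrabta) over 17570 genes, with lines at PRR7, at ELF3 and at the median of all genes (the axis leaves out the few most extreme genes). PRR7 at -2.55 and ELF3 at -2.08 lie in the lower tail, and the median of all genes lies at -0.98 and not at 0. The histogram is that of the logFC of all genes, moved by the logFC of LHY/CCA.

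Other clock and light signalling genes were taken from a list of 14 contigs that the study named or that its array annotation matched to Arabidopsis. GIGANTEA, the first of the CK2 beta contigs, SKIP, the second HY5 contig, UVR8 and APRR2 had no row and were not analysed here. This left 8 with a row. Of these, 2 lay higher in Leiria and 6 higher in Tamrabta, without overlap, against 25.1% and 23.9% of all genes. Their median logFC was -1.05, against 0.011 for all genes. limma called 0 of the 8 (0.154% of all genes) and gave 7 of them an unadjusted p under 0.05 (14.7% of all genes). The edgeR exact test called 5 (5.99% of all genes), DESeq2 called 3 (6.19%) and the edgeR quasi-likelihood test called 0 (0.0114%). The list was picked by the expression differences of these libraries or of arrays that included the sequenced plants, so its counts are not independent evidence of a direction.

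Among the clock genes of this list, LNK2 (sp_v3.0_unigene23606) and a CK2 beta contig (sp_v3.0_unigene9907) were measured. LNK2, a coactivator of clock transcription in Arabidopsis, was at 150.2 and 165 CPM in L6 and L7 and at 324 and 260.2 CPM in T3 and T6 (logFC -0.88, standard error 0.18, adjusted p = 0.173 from limma). CK2 beta, a regulatory subunit of the casein kinase that phosphorylates CCA1 in Arabidopsis, was at 28.5, 33.7, 38.6 and 43.5 CPM in the same order (logFC -0.40, standard error 0.17, adjusted p = 0.392 from limma). Both had higher levels in the Tamrabta plants, as PRR7 and ELF3 had.

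Of the light signalling genes, HY5 (sp_v3.0_unigene6865), a transcription factor that promotes development in the light in Arabidopsis, was at 36.7 and 39.5 CPM in L6 and L7 and at 94.2 and 89.6 CPM in T3 and T6. HY5 thus differed by a logFC of -1.26 ± 0.15 (standard error), with an adjusted p of 0.0943 in limma and of 0.00428 in the edgeR exact test. Chalcone synthase (sp_v3.0_unigene30752), the entry enzyme of flavonoid synthesis, was at 25.5, 14.0, 101 and 104 CPM in the same order (logFC -2.41, standard error 0.32, adjusted p = 0.104 from limma). Both genes were higher in both Tamrabta plants than in both Leiria plants.

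ELIP (sp_v3.0_unigene97042), an early light-inducible protein of the chloroplast, was at 291 and 168 CPM in L6 and L7 and at 624 and 425 CPM in T3 and T6 (logFC -1.22, standard error 0.36, adjusted p = 0.263 from limma). FT/TFL1-like (sp_v3.0_unigene22311), of the family that holds promoters and repressors of flowering in angiosperms, had 2 counts in L6, under the detectable level, and was at 1.16 CPM in L7, 4.70 CPM in T3 and, at its highest, 7.40 CPM in T6. The genes with higher levels in Leiria, as LHY/CCA had, were COL15 and PAP2. COL15 (sp_v3.0_unigene6381), a CONSTANS-like protein, was at 90.6, 99.7, 53.2 and 65.8 CPM in L6, L7, T3 and T6 (logFC 0.68, standard error 0.18, adjusted p = 0.235 from limma). PAP2 (sp_v3.0_unigene37920) was at 621, 710.3, 392 and 272 CPM in the same order (logFC 1.02, standard error 0.24), with an adjusted p of 0.205 in limma and of 0.0405 in the edgeR exact test.

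**Figure D4:**
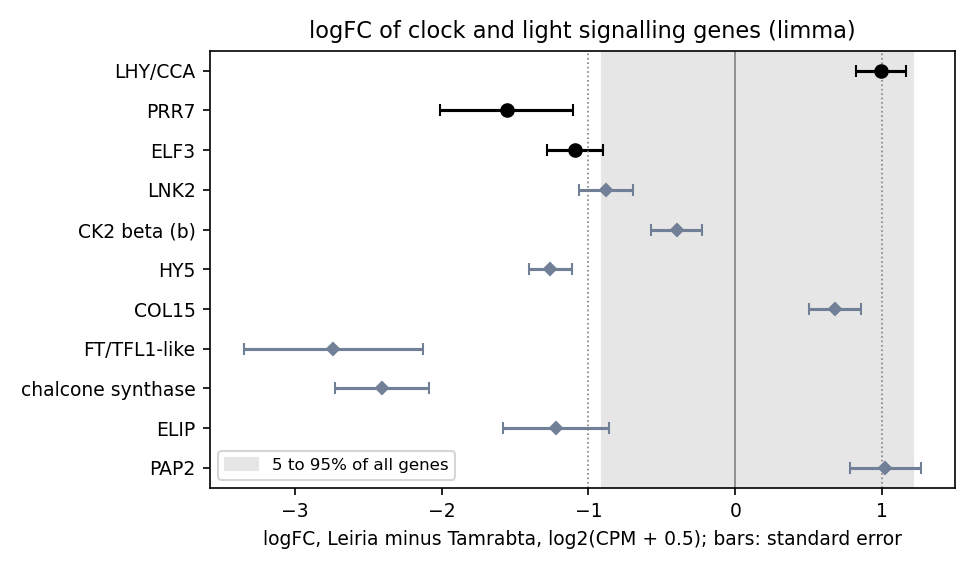
logFC of the clock members (black circles) and of the listed clock and light signalling genes with a row (grey diamonds), as Leiria minus Tamrabta in log2(CPM + 0.5), with standard errors from limma as bars, dotted lines at the logFC threshold and the range from 5% to 95% of all genes shaded. LHY/CCA at 0.99, COL15 at 0.68 and PAP2 at 1.02 are the 3 genes on the Leiria side, and the other 8 lie on the Tamrabta side.

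Photosynthesis genes, which mark green needle tissue, were checked in the same libraries. Of the 9 contigs listed, 4 had a row, and each was detected in all libraries, at 89.0 to 2650 CPM. Their summed level was 6821 and 5100 CPM in L6 and L7, and 3912 and 3003 CPM in T3 and T6. All 4 were higher in Leiria without overlap, in the same direction as LHY/CCA, as were 25.1% of all genes. The contigs were listed from the annotation of the study's arrays, which included the sequenced plants, so their shared direction is not independent evidence. limma called 0 of 4 (0.154% of all genes) and gave 4 of 4 an unadjusted p under 0.05 (14.7% of all genes), and the edgeR exact test called 1 (5.99% of all genes). The part of needle composition in the levels of the clock genes was not tested, and in whole needles fewer cells that express a gene cannot be told apart from less of its RNA in each cell.

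Some genes followed the members closely over the libraries. Likeness was the root mean square distance between log2 profiles, each centred on its own mean over the 4 libraries, among genes with a mean of at least 5 CPM. For LHY/CCA the nearest were sp_v3.0_unigene7593 (distance 0.025), sp_v3.0_unigene8356 (0.025) and sp_v3.0_unigene20032 (0.050), and 27 genes lay within 0.1. The nearest of these, sp_v3.0_unigene7593, was at 54.1 and 52.6 CPM in L6 and L7 and at 29.8 and 23.5 CPM in T3 and T6. For ELF3 the nearest were sp_v3.0_unigene9242 (0.031), sp_v3.0_unigene37646 (0.065) and sp_v3.0_unigene13305 (0.065), with 7 genes within 0.1, and sp_v3.0_unigene9242 was at 6.90, 9.11, 19.2 and 16.8 CPM.

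PRR7 had fewer near neighbours, with 1 gene within 0.1. The distance was not scaled to the size of the differences, so this count also depends on the larger absolute logFC of PRR7. Its nearest genes were sp_v3.0_unigene185411 (0.093), sp_v3.0_unigene35470 (0.124) and sp_v3.0_unigene36186 (0.132). The first was at 2.03 and 6.0 CPM in L6 and L7 and at 13.4 and 12.0 CPM in T3 and T6. Its gap between the Leiria plants follows from its choice, since the distance includes L6 and L7. The members were farther from one another, with a distance of 0.41 between PRR7 and ELF3, 1.05 between LHY/CCA and ELF3 and 1.35 between LHY/CCA and PRR7. With only 4 libraries such distances are a description, and many genes share a difference between 2 provenances.

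**Figure D5:**
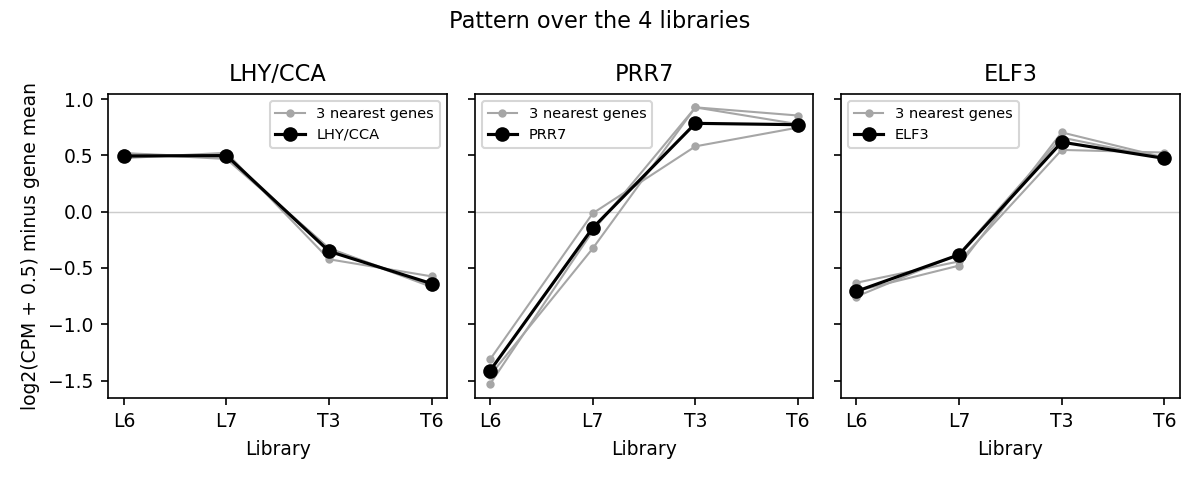
Profiles of LHY/CCA, PRR7 and ELF3 (black) and of the 3 genes nearest to each (grey) over the needle libraries, as log2(CPM + 0.5) minus the gene's own mean. LHY/CCA is level between L6 and L7 and lower in T3 and T6, while PRR7 goes from -1.41 in L6 to -0.14 in L7 before the Tamrabta plants at 0.78 and 0.77.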

How the data were processed

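RNA-Seq reads from the needles of 4 plants were processed by the authors, who mapped pairs with Bowtie2 onto contigs of SustainPineDB. The signal deposited per contig is the CPM of edgeR after TMM normalization. The sources used here do not give the versions of Bowtie2 and edgeR, the use of strand or the treatment of pairs that fit several contigs, so similar contigs could share counts. Dividing by the value of 1 count gave whole numbers (to 0.01 counts) for all 70284 values.

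The provenances were compared on log2(CPM + 0.5) by limma 3.58.1 (R 4.3.3, prior variance with an intensity trend), and p-values were adjusted over 17571 genes by the method of Benjamini and Hochberg. Genes counted as called when the adjusted p was under 0.05 and the logFC beyond 1 in either direction, which follows the study. Because the values are normalized, the exact test the study used and the quasi-likelihood test (edgeR 4.0.16) and DESeq2 1.42.0 were alternatives, on the recovered counts. The pseudocount (0.1 or 1), a minimum mean CPM of 5, other priors, other scalings, no threshold on logFC, the replicate number as a block and leaving out each library were also tried. Recovery and tests were checked on simulated data. The p-values of limma, edgeR and DESeq2 rest on the spread between 2 plants of a provenance, moderated with information from all genes.

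The members and the gene lists were chosen with earlier results of these data known. Named genes were the members, the listed clock and light genes with a row, and the 3 genes nearest to each member by profile.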

Additional observations from a re-analysis of the deposited data

How the results depend on the processing

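The directions of LHY/CCA, PRR7 and ELF3 were the same under every alternative run, and LHY/CCA was called under none of them. Only the scalings and the count tests could have reversed a direction. The values of the provenances did not overlap, so leaving out 1 library or changing the pseudocount could not. The prior, the replicate block and the minimum mean CPM leave the logFC of a member as it is. PRR7 was called by the edgeR exact test (logFC -1.42) and by DESeq2 (-1.44), and ELF3 by DESeq2 (-1.11), so 1 and 2 members were called in place of 0. The number of genes called, 27 with limma, was 17 with a pseudocount of 1, 5 at a mean CPM of at least 5, 1053 with the exact test, 2 with the quasi-likelihood test, 1088 with DESeq2 and 0 to 32 with each library left out. With each library left out, the change of the ratio to LHY/CCA was -3.18 to -1.92 for PRR7 and -2.24 to -1.92 for ELF3, and 0 to 10000 ratios were called. These fits leave 1 plant in a provenance, which is assumed to vary like the others. The log2 ratio of PRR7 to ELF3 turned from -0.45 to 0.0205 without L6 (-0.92 to 0.0205 with each library left out). The cause was not tested.

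The labels number the samples of each provenance as replicate 1 and 2 and name no batch. The deviations of the number 1 plants from their provenance means correlated at 0.23 over 11218 genes. With the replicate block, limma called 9 genes, with adjusted p of 0.107 for LHY/CCA, 0.152 for PRR7 and 0.118 for ELF3, and it changed no call of a member or of its ratio. The lowest count of a member in a library was 598. For the ratios, 2 plants against 2 allow no exact permutation p below 0.33.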
